A study of Mus musculus with 18 samples.

Results

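The genes described here are 9 factors that mark and maintain the pluripotent state of mouse embryonic stem cells: Pou5f1, Sox2, Nanog, Sall4, Utf1, Lin28a, Tdgf1, Gdf3 and Fgf4. They were picked by name and not by a rule on their measured values, though with earlier results of these data known. They are the rows of the count tables that carry their Ensembl identifiers, and all 9 were found among the 51826 identifiers. Their ribosome footprints, fragments of mRNA shielded by a ribosome, were counted in the E14 mouse embryonic stem cell line. The groups, each of 3 libraries that the submitters call biological triplicates, were Quaking KO, Sam68 KO and WT cells at day 10 of embryoid body differentiation, and Quaking KO, Sam68 KO and WT cells at day 0. Embryoid bodies are floating clumps of stem cells that differentiate into cell types of the early embryo. WT is the unedited parental line, and both knockouts have the same E14 background. Quaking and Sam68 are related proteins of the STAR family that bind RNA. All 6 groups were treated with cycloheximide, which holds ribosomes on the mRNA. How the knockouts were made, and how many clones each line stands for, is not stated in the labels.

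Pou5f1 (also called Oct4), Sox2 and Nanog are transcription factors that bind together at many regulatory elements of stem cells, including those of their own genes. Sall4 is a zinc-finger transcription factor of the same network, and Utf1 is a chromatin-associated protein found in undifferentiated cells. Lin28a binds RNA and blocks maturation of the let-7 microRNAs. Tdgf1 (Cripto) is the membrane-bound co-receptor of the ligand Nodal, Gdf3 is a secreted ligand of the TGF-beta superfamily that acts through the same receptors, and Fgf4 is a secreted growth factor that primes stem cells for differentiation. When embryoid bodies form, the network is known to be shut down, while Sall4 and Lin28a are also used in later embryonic tissues.

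In the GRCm38.p6 annotation all 9 are protein-coding. Pou5f1 lies at chr17:35506032-35510777 on the plus strand, Sox2 at chr3:34649995-34652461 on the plus strand, Nanog at chr6:122707489-122714633 on the plus strand and Lin28a at chr4:134003330-134019196 on the minus strand. Sall4 lies at chr2:168748332-168767201, and Gdf3 at chr6:122605403-122610087, 97.4 kb from Nanog. The upstream sequences of 3 transcription factor genes are shown because the encoded Oct4 and Sox2 proteins read short motifs that can be looked for there. A link between the motifs and the changes with day was not tested. RefSeq promoter entries of GRCm38.p6 matched 7 of the 9 members, all but Sall4 and Gdf3. The first entry of Pou5f1 (chr17:35505782-35506031, plus strand), the entry of Sox2 (chr3:34649745-34649994, plus strand) and the first entry of Nanog (chr6:122707239-122707488, plus strand) are given as the 250 bases before the start, with capitals marking matches to the motifs searched.
Pou5f1: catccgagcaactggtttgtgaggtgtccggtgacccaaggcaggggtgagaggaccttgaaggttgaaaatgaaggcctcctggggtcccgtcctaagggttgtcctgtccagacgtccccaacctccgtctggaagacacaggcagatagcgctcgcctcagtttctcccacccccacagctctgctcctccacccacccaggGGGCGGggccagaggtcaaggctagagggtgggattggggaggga
Sox2: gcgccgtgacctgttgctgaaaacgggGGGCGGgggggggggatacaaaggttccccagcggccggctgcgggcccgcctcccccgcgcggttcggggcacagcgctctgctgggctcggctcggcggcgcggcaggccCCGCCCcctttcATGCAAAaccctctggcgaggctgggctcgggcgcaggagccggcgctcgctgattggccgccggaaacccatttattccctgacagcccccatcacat
Nanog: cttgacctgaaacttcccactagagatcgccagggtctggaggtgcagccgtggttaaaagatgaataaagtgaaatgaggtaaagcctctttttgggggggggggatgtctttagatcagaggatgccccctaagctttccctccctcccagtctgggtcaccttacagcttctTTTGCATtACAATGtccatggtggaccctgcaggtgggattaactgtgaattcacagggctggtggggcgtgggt

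The motifs were the octamer core ATGCAAA, the Sox core CATTGT, their joint form (the Sox core, any 1 base and the first 4 bases of the octamer core) and the GC box GGGCGG, each searched on both strands. The joint form overlaps both cores. Among the 32851 upstream windows of 250 bases in the RefSeq table, 4.12% held the octamer core, 10.7% the Sox core, 0.0578% (19 windows) the joint form and 32.7% a GC box. Nanog was the only one of the 7 matched members with the joint form, which its window holds on the minus strand starting 72 bases before the start. The Sox2 window held an octamer core 99 bases before the start and 2 GC boxes, and the first Pou5f1 window held 1 GC box. The second RefSeq entry of Pou5f1, which starts inside the gene, held a Sox core 158 bases before its start. Utf1 had 4 GC boxes, Fgf4 had 2 and Tdgf1 had 1, with none of the other motifs in their windows. For Lin28a the Sox core 96 bases before the entry's start is shown with its flanks, 30 bases in all (chr4:134018895-134018924, minus strand). The stretch lies inside the annotated gene.
Lin28a: ggggggttgggtCATTGTcttttagaattt

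Total counts were 988210 to 10646768 per library. Levels are given as CPM, the counts scaled to a common library size, here with TMM factors, which correct for differences in composition between libraries, and were not compared between genes because coding lengths were not used here. The 10 largest features took 70.4% of the counts in WT day 10 replicate 3 and 60.2% and 64.4% in Sam68 KO day 10 replicates 2 and 3, against at most 30.2% in the other 15 libraries. After scaling, a count of 3 therefore equals 7.05 CPM in that WT library and 0.233 CPM in the most deeply sequenced one. A mix tag in the sample descriptions pairs Quaking KO with WT at day 0 (MIX_1), Sam68 KO at day 0 with WT at day 10 (MIX_2) and both knockouts at day 10 (MIX_3). Quaking KO against WT at day 0 and Sam68 KO against Quaking KO at day 10 lie within a mix; in the other comparisons mix and group cannot be told apart. The files do not pair identifiers with gene names, so the counts of the knocked-out genes and of other marker and pathway genes were not analysed here. Footprints do not separate the amount of an mRNA from its translation, and in these bulk samples fewer cells with a transcript and less transcript per cell cannot be told apart.

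The first question was whether the pluripotency factors are lost over 10 days in each line. All 9 genes were lower at day 10 than at day 0 in Quaking KO, in Sam68 KO and in WT cells (edgeR's quasi-likelihood test over 13701 genes, Benjamini-Hochberg adjusted p below 0.05). By the same rule 29.4%, 30.5% and 30.1% of all genes tested were lower at day 10 in Quaking KO, Sam68 KO and WT cells. The median log2 fold change of the 9 members was -5.66 in Quaking KO, -5.86 in Sam68 KO and -5.59 in WT cells, beside 0.11, 0.11 and 0.10 over all genes tested. Of the 9, Gdf3 and Fgf4 entered the test only through their day 0 counts. In 7 of the genes between 0.40% and 5.54% of the day 0 mean was left at day 10. Sall4 and Lin28a stood apart with 13.9% to 69.7% left. The label of every library names mouse embryonic stem cells; the level of these 7 defining markers was low in every day 10 library.

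**Figure D1:**
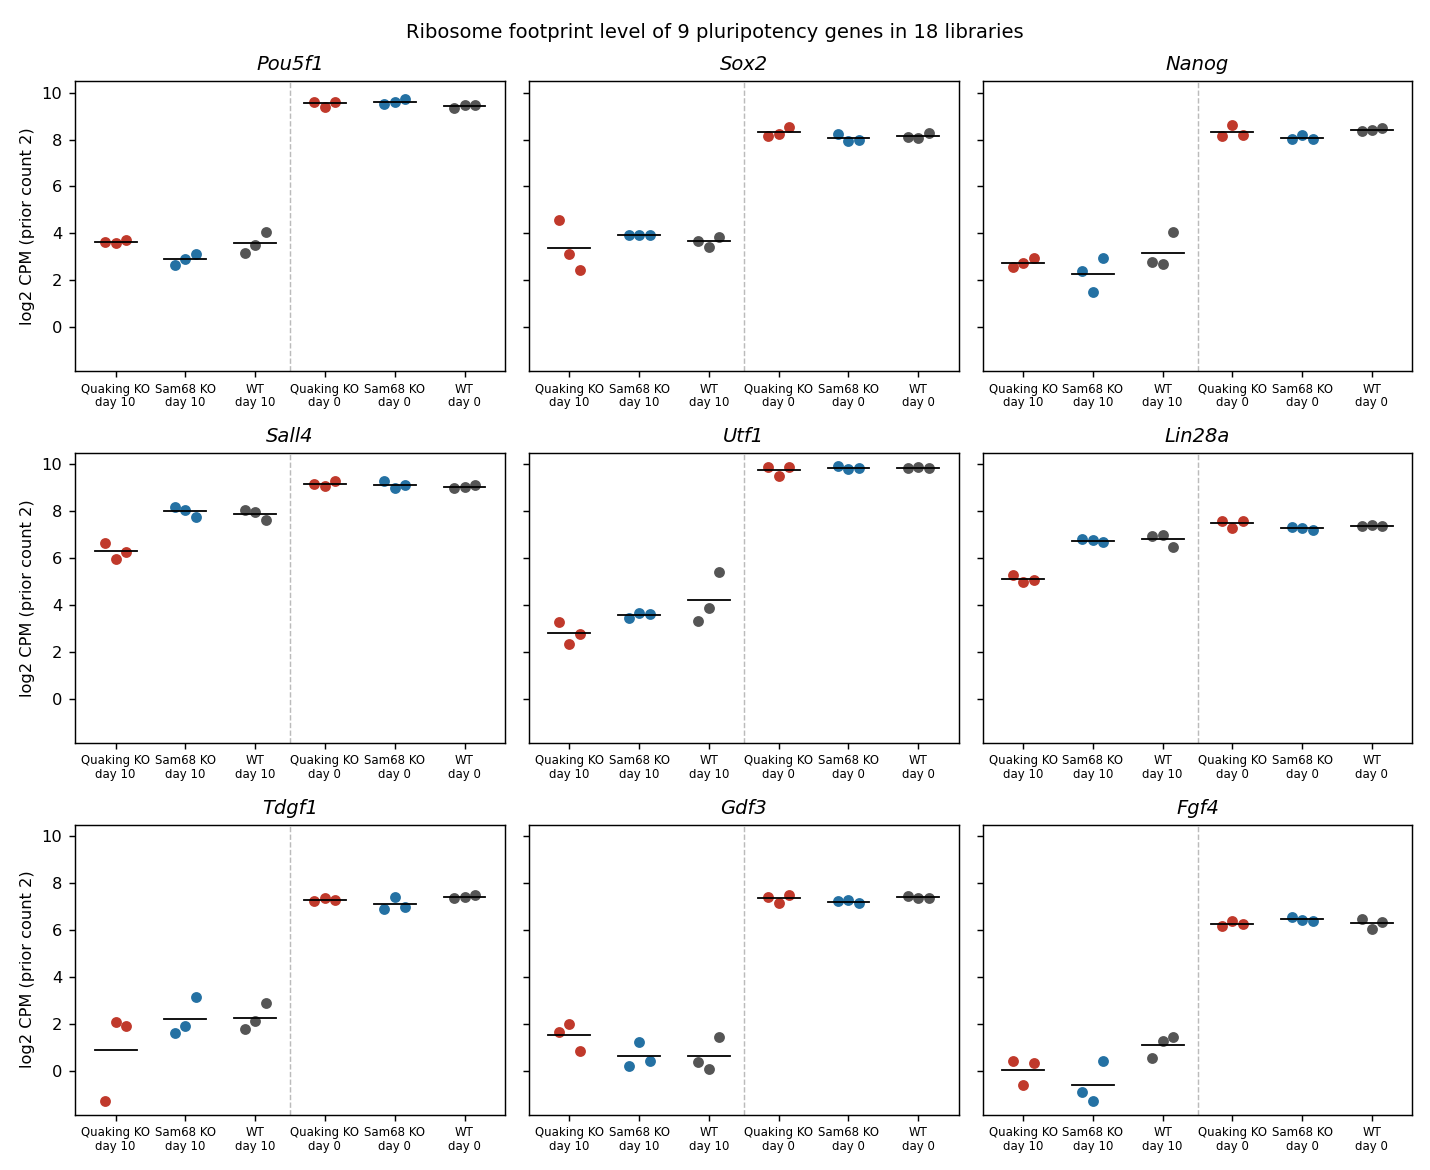
Log2 CPM (prior count 2) of the 9 genes, one panel each, in the 3 libraries (points) of each group, with the group mean as a line. All day 10 points of 7 genes lie far below their day 0 points, while Sall4 and Lin28a keep intermediate levels in Sam68 KO and WT embryoid bodies.

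Pou5f1 (ENSMUSG00000024406) had 12.1, 11.6 and 12.6 CPM in Quaking KO, 5.91, 7.17 and 8.33 CPM in Sam68 KO and 8.55, 10.9 and 16.4 CPM in WT embryoid bodies at day 10. At day 0 it had 775, 679 and 784 CPM in Quaking KO, 734, 785 and 842 CPM in Sam68 KO and 640, 700 and 714 CPM in WT cells. The lowest day 0 library was 38.9-fold above the highest day 10 library. Log2 fold changes, day 10 over day 0, were -5.94 ± 0.17 in Quaking KO, -6.86 ± 0.19 in Sam68 KO and -6.04 ± 0.18 in WT cells (SE, n = 3 libraries a group), the largest adjusted p of the edgeR fit being 2.34e-18. In WT cells, 0.635% of genes tested had a lower fold change. RefSeq lists 7 pseudogenes of Pou5f1, 2 of Nanog and 2 of Tdgf1, and the handling of reads that match several places is not given, so counts of these 3 genes may include or lack shared reads.

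Sox2 (ENSMUSG00000074637) had 23.2, 8.26 and 5.05 CPM in Quaking KO, 14.8 CPM in each of the 3 Sam68 KO libraries and 12.3, 10.4 and 14.1 CPM in WT embryoid bodies at day 10. The 9 day 0 libraries ran from 243 to 371 CPM with a median of 288 CPM. The Quaking KO embryoid bodies spread the widest, with 1 library above and 2 below all the others. Log2 fold changes with day were -4.99 ± 0.33 in Quaking KO, -4.17 ± 0.31 in Sam68 KO and -4.60 ± 0.32 in WT cells (SE). Sox2, which is also a factor of neural progenitors, kept 3.82%, 5.54% and 4.31% of its day 0 mean in these lines. Sox2 lies inside the lncRNA gene Sox2ot and Sall4 overlaps the lncRNA gene Gm14261, and whether counting used strand is not given.

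Nanog (ENSMUSG00000012396) had 5.57, 6.20 and 7.29 CPM in Quaking KO, 4.91, 2.39 and 7.41 CPM in Sam68 KO and 6.45, 5.98 and 16.4 CPM in WT embryoid bodies, against 259 to 396 CPM over the day 0 libraries. The highest value came from WT replicate 3, where it rests on 7 counts. Its log2 fold changes with day lay between -5.86 in Sam68 KO and -5.59 in WT cells. Utf1 (ENSMUSG00000047751) had 9.28, 4.65 and 6.45 CPM in Quaking KO, 10.7, 12.4 and 12.04 CPM in Sam68 KO and 9.60, 14.2 and 42.3 CPM in WT embryoid bodies, against 725 to 977 CPM at day 0. Its log2 fold changes with day were -7.13 ± 0.40 in Quaking KO, -6.33 ± 0.38 in Sam68 KO and -5.86 ± 0.38 in WT cells (SE).

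The signalling genes were left with few counts at day 10, at most 21 in a library. Tdgf1 (ENSMUSG00000032494), the Nodal co-receptor, had 0, 3.87 and 3.36 CPM in Quaking KO, 2.64, 3.34 and 8.33 CPM in Sam68 KO and 3.00, 3.99 and 7.05 CPM in WT embryoid bodies, against 121 to 179 CPM at day 0. The value of 0 allows up to 2.78 CPM in that library. Gdf3 (ENSMUSG00000030117) was left with 22, 11 and 10 counts in all 3 libraries of Quaking KO, Sam68 KO and WT embryoid bodies, or means of 2.60, 1.197 and 1.30 CPM, against 141 to 181 CPM in single libraries at day 0. Log2 fold changes with day were -5.66, -5.25 and -5.54 for Tdgf1 and -5.98, -7.14 and -7.56 for Gdf3 in Quaking KO, Sam68 KO and WT cells. Fgf4 (ENSMUSG00000050917) had 5, 2 and 17 counts in the same groups, against 631, 1959 and 2120 counts at day 0. Pooled and scaled, this is 0.772% of the day 0 level in Quaking KO (95% exact interval 0.250% to 1.81%), 0.207% in Sam68 KO (0.0250% to 0.747%) and 1.86% in WT cells (1.08% to 2.98%), counting error only. All 9 genes passed the low-count filter over the 18 libraries, but Gdf3 and Fgf4 passed it through day 0 and would not pass on the day 10 libraries alone.

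**Figure D2:**
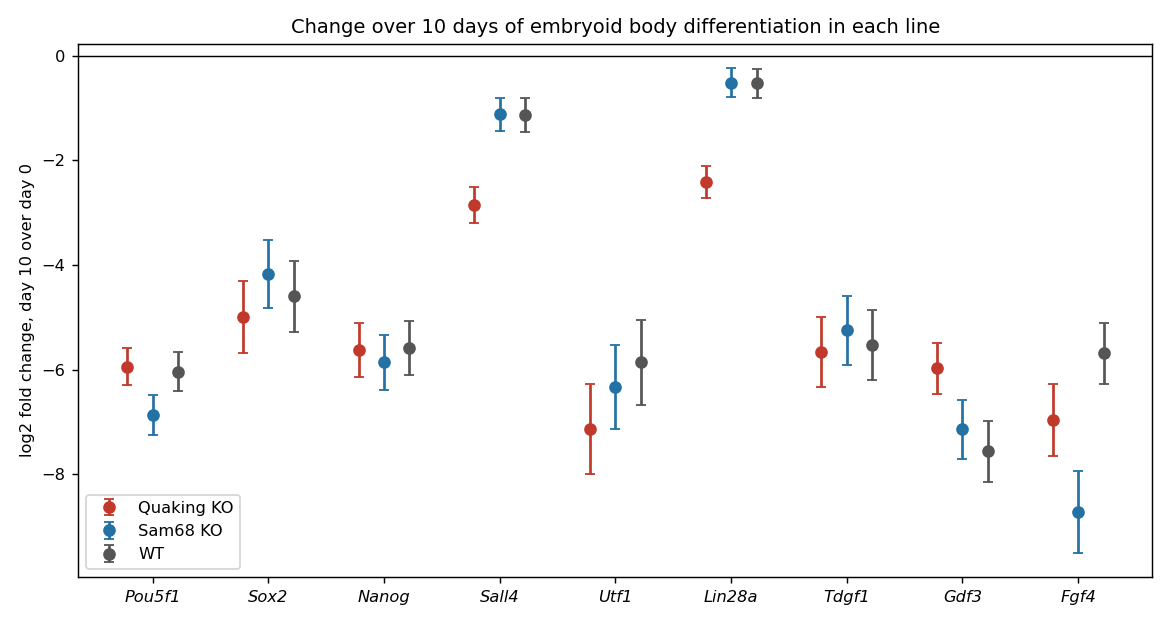
Log2 fold change, day 10 over day 0, of each gene (x axis) in Quaking KO, Sam68 KO and WT cells; points are fitted values and bars their 95% intervals. All 27 values are below 0, and those of Sall4 and Lin28a are the smallest in size, with the Quaking KO values of these 2 genes below the others. The intervals of Gdf3 and Fgf4 are too narrow for their few day 10 counts.

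Sall4 and Lin28a kept a larger part of their day 0 level. Sall4 (ENSMUSG00000027547) had 101, 62.0 and 76.8 CPM in Quaking KO, 290, 266 and 215 CPM in Sam68 KO and 269, 249.9 and 199.7 CPM in WT embryoid bodies. At day 0 it had 569, 534 and 622 CPM in Quaking KO, 628, 506 and 549.9 CPM in Sam68 KO and 511, 523 and 554 CPM in WT cells. Every Quaking KO embryoid body library lay below every one of the other lines, and the Sam68 KO and WT values overlapped. Sall4 thus kept 13.9% of its day 0 mean in Quaking KO, 45.8% in Sam68 KO and 45.3% in WT cells. The log2 fold changes were -2.86 ± 0.17 (adjusted p = 2.73e-13), -1.12 ± 0.16 (8.64e-07) and -1.13 ± 0.16 (8.48e-07; SE, edgeR).

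Lin28a (ENSMUSG00000050966) had 38.96, 31.2 and 33.1 CPM in Quaking KO, 112, 109 and 102 CPM in Sam68 KO and 123, 127 and 89.3 CPM in WT embryoid bodies. At day 0 it had 191, 156 and 193 CPM in Quaking KO, 161, 157 and 146 CPM in Sam68 KO and 165, 169 and 167 CPM in WT cells. The order was that of Sall4: the Quaking KO embryoid bodies were lowest without overlap, and the other lines overlapped at day 10. Lin28a kept 19.1% in Quaking KO, 69.7% in Sam68 KO and 67.7% in WT cells, with log2 fold changes of -2.41 ± 0.15 (adjusted p = 6.35e-13), -0.52 ± 0.13 (0.00170) and -0.53 ± 0.14 (0.00156; SE, edgeR). In WT cells 32.8% of genes tested fell further. With every library thinned to the smallest total the Lin28a change was no longer called in Sam68 KO (-0.24, adjusted p = 0.475) or WT cells (-0.19, 0.577). A model with the mix as a block allows only 1 day effect for all lines and turned the sign of both genes (Sall4 0.61, Lin28a 1.37), since it equals the WT and Sam68 KO changes minus that of Quaking KO.

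**Figure D3:**
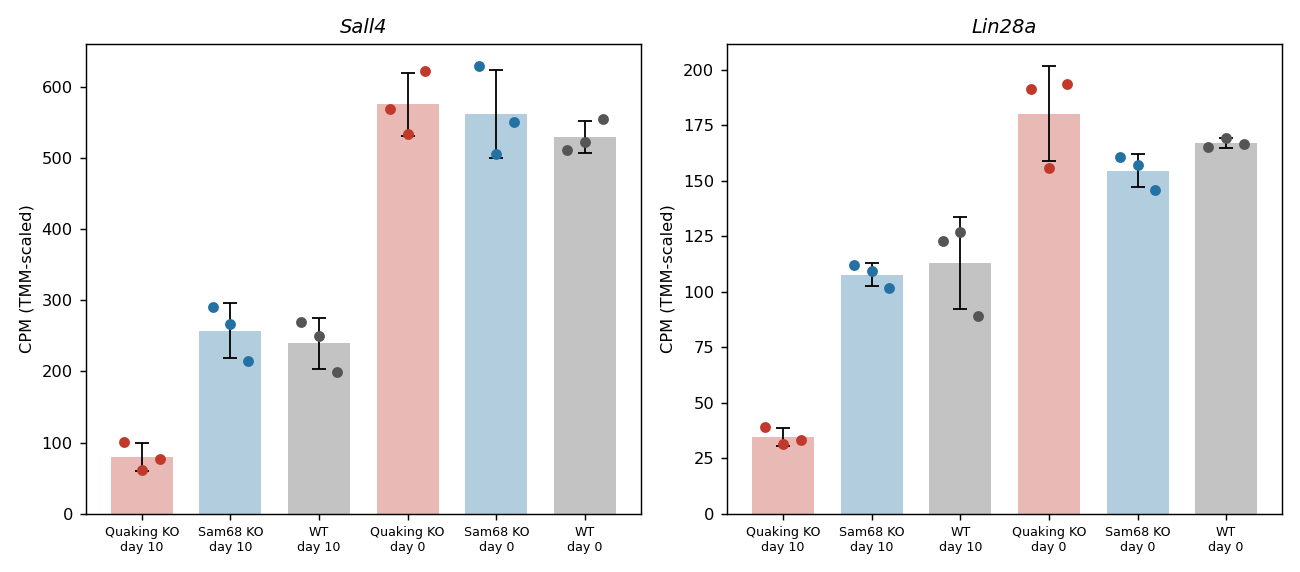
CPM of Sall4 and Lin28a in each library (points) with the group mean (bar) and SD (error bar, n = 3). Both genes have similar bars in the 3 lines at day 0, and at day 10 the Quaking KO bars (80.0 and 34.4 CPM) are below those of Sam68 KO (257 and 108 CPM) and WT (240 and 113 CPM).

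The knockouts were then compared with WT before differentiation. At day 0 no member passed the threshold in Quaking KO against WT, a comparison within a mix in which 0.365% of all genes tested were called. None passed in Sam68 KO against WT, where 1.26% were called, or in Sam68 KO against Quaking KO, where 3.31% were. In each of the 3 comparisons 0 members had an unadjusted p below 0.05 in edgeR and 0 were called by DESeq2. The 95% intervals of the 9 log2 differences lay between -0.70 and 0.69 for Quaking KO against WT and between -0.74 and 0.61 for Sam68 KO against WT. For Sam68 KO against Quaking KO they lay between -0.78 and 0.70. The SEs of these log2 differences ran from 0.13 for Lin28a and Pou5f1 to 0.29 for Utf1, so the size that could be detected differed between the genes. The largest estimate against WT was that of Nanog in Sam68 KO, with means of 271 ± 20.2 CPM in Sam68 KO and 341 ± 14.5 CPM in WT cells (SD, n = 3), a log2 difference of -0.33 (interval -0.71 to 0.05, adjusted p = 0.612). Over all 9 day 0 libraries the highest value of a gene was 1.24 (Sall4) to 1.53 (Nanog and Sox2) times its lowest.

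At day 10 the lines differed in a few members. In Quaking KO against WT embryoid bodies 3 members were lower (Sall4, Lin28a and Utf1) and 1 was higher (Gdf3), where 12.8% of genes tested were lower and 11.1% higher, 23.9% in all. The share of the called genes that were higher was 46.4%, and 54.6% with RLE scaling. Sall4 averaged 80.0 ± 19.8 CPM in Quaking KO and 240 ± 35.8 CPM in WT embryoid bodies (SD, n = 3), 3.06-fold lower, with a log2 difference of -1.61 ± 0.16 (SE, edgeR adjusted p = 6.29e-08). Lin28a averaged 34.4 ± 4.03 CPM in Quaking KO and 113 ± 20.7 CPM in WT, 3.42-fold lower, with a log2 difference of -1.77 ± 0.15 (adjusted p = 4.12e-09). Without the 3 libraries with a few dominant features these were -1.74 and -1.90. Of all genes tested, 7.36% had a lower log2 difference than Sall4 and 6.44% a lower one than Lin28a.

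Utf1 averaged 6.79 ± 2.33 CPM in Quaking KO and 22.02 ± 17.7 CPM in WT embryoid bodies (SD, n = 3). Its log2 difference was -1.36 ± 0.40 (SE, edgeR adjusted p = 0.0238), and the highest Quaking KO library (9.28 CPM) lay just under the lowest WT library (9.60 CPM). Without WT replicate 3 and the other 2 dominated libraries it was -0.94 (adjusted p = 0.00217), and it was no longer called without Quaking KO replicate 2 or 3 (0.101 and 0.0703) or in a fit of the compared groups alone (0.105). Gdf3 had 2.78, 3.61 and 1.402 CPM in Quaking KO and 0.900, 0.665 and 2.35 CPM in WT embryoid bodies, which overlap. Its log2 difference was 1.55 ± 0.41 (adjusted p = 0.0157), where the SE, like the others given for Gdf3, is smaller than counting error alone. It rests on 22 counts in Quaking KO and 10 in WT, a pooled ratio of 3.00 (95% counting interval 1.36 to 7.09), and without Quaking KO replicate 2 the log2 difference was 1.01 (adjusted p = 0.306). It was also not called without WT replicate 1 (1.61, adjusted p = 0.0728) or 2 (1.33, 0.0864) or with thinned libraries (1.60, 0.642).

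The other 5 members were not called in Quaking KO against WT embryoid bodies. The log2 differences were 0.22 for Pou5f1 (95% interval -0.15 to 0.59), -0.23 for Sox2 (-0.97 to 0.52), -0.11 for Nanog (-0.70 to 0.47), -0.24 for Tdgf1 (-1.13 to 0.65) and -1.30 for Fgf4 (-2.44 to -0.17, adjusted p = 0.147). The Fgf4 interval leaves out 0 although the unadjusted edgeR p was 0.0536, and is too narrow for so few counts. The Pou5f1 interval is also somewhat narrower than counting error alone would give. The Sox2 value depended on the Quaking KO library left out: it was -0.79 and called without replicate 1 (adjusted p = 0.0107), which had 23.2 CPM, -0.03 without replicate 2 and 0.22 without replicate 3 (adjusted p = 0.996).

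In Sam68 KO against WT embryoid bodies 0 of the 9 members were called, where 0.175% of all genes tested were. With edgeR 2 members had an unadjusted p below 0.05, Pou5f1 and Fgf4, and DESeq2 called 0. Sall4 differed by 0.09 (95% interval -0.23 to 0.41) and Lin28a by -0.10 (-0.39 to 0.18) on the log2 scale, so a difference from WT of the size seen in Quaking KO lies outside both intervals. Pou5f1 averaged 7.14 ± 1.21 CPM in Sam68 KO and 11.9 ± 4.06 CPM in WT (SD, n = 3), a log2 difference of -0.62 (interval -1.01 to -0.23, adjusted p = 0.356). That interval is somewhat narrower than counting error alone would give. The highest Sam68 KO library (8.33 CPM, 9 counts) lay just under the lowest WT library (8.55 CPM, 57 counts). The highest WT value, 16.4 CPM, rests on 7 counts in replicate 3. Fgf4 had 2 counts in Sam68 KO and 17 in WT, a pooled ratio of 0.123 (95% counting interval 0.0138 to 0.517) that was not called (adjusted p = 0.0978). Without Sam68 KO replicate 3 it was called (adjusted p = 0.0483). The log2 differences of the other 5 members were 0.34 for Sox2 (interval -0.36 to 1.05), -0.60 for Nanog (-1.21 to 0.00086), -0.48 for Utf1 (-1.28 to 0.33), -0.01 for Tdgf1 (-0.81 to 0.80) and 0.23 for Gdf3 (-0.77 to 1.22).

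Sam68 KO against Quaking KO embryoid bodies lies within a mix and shares the Quaking KO libraries with the first day 10 comparison. Sall4 and Lin28a were higher and Pou5f1 and Gdf3 lower in Sam68 KO, where 13.0% of genes tested were higher and 10.6% lower, 23.7% in all. The share of the called genes that were higher was 55.1%, and 44.5% with RLE scaling. Sall4 averaged 257 ± 38.6 CPM in Sam68 KO and 80.0 ± 19.8 CPM in Quaking KO (SD, n = 3), with a log2 difference of 1.71 ± 0.16 (SE, edgeR adjusted p = 2.37e-08). Lin28a averaged 108 ± 5.20 CPM in Sam68 KO and 34.4 ± 4.03 CPM in Quaking KO, with a log2 difference of 1.67 ± 0.15 (adjusted p = 6.94e-09). The differences of both genes were about as large as between Quaking KO and WT, where mix and group cannot be told apart. A part of the mix in that comparison was not tested.

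Pou5f1 went the other way between the knockouts, with 7.14 ± 1.21 CPM in Sam68 KO and 12.1 ± 0.4996 CPM in Quaking KO embryoid bodies (SD, n = 3), without overlap. The log2 difference was -0.84 ± 0.18 (SE, edgeR adjusted p = 0.00140), where the SE is smaller than counting error alone would give. It was no longer called without Sam68 KO replicate 1 (-0.68, 0.108), in a fit of the compared groups alone (-0.82, 0.145) or with thinned libraries (-0.44, 0.612). Gdf3 had 11 counts in Sam68 KO and 22 in Quaking KO, a pooled ratio of 0.383 (95% counting interval 0.168 to 0.824), and a log2 difference of -1.32 ± 0.41 (adjusted p = 0.0339). Without Quaking KO replicate 2 or Sam68 KO replicate 1 it was -0.78 or -0.72 and not called. Sox2 differed by 0.57 (interval -0.16 to 1.30, adjusted p = 0.259), by 1.13 without Quaking KO replicate 1 (adjusted p = 0.000374), by 0.38 without replicate 2 and by 0.12 without replicate 3 (adjusted p = 0.837). Utf1 differed by 0.88 (interval 0.03 to 1.73, adjusted p = 0.130) and was called without the 3 dominated libraries (0.81, 0.0278). Nanog differed by -0.49 (interval -1.10 to 0.12) and Tdgf1 by 0.24 (-0.67 to 1.15), and Fgf4 had 2 counts in Sam68 KO and 5 in Quaking KO embryoid bodies.

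**Figure D4:**
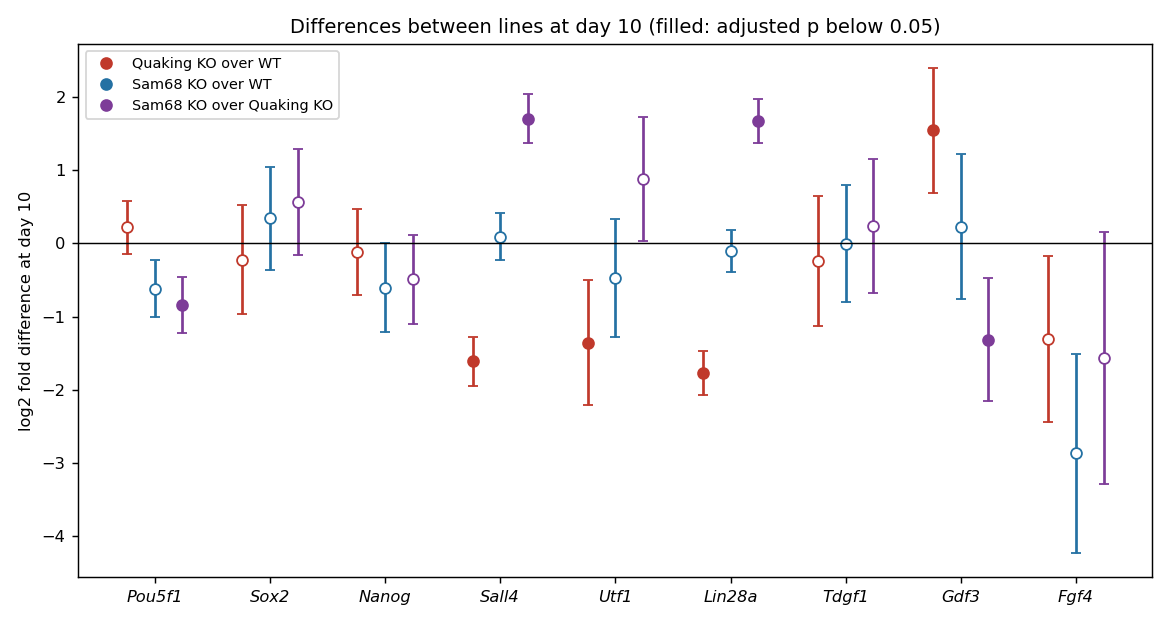
Log2 differences at day 10 for Quaking KO over WT, Sam68 KO over WT and Sam68 KO over Quaking KO, with 95% intervals; filled points have an adjusted p below 0.05. Sall4 and Lin28a are near -1.7 in Quaking KO over WT, near 0 in Sam68 KO over WT and near 1.7 in Sam68 KO over Quaking KO. The intervals of Gdf3 and Fgf4 are too narrow for their few counts, and those of Pou5f1 are so to a lesser degree.

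Whether the change with day itself differed from WT was tested as an interaction. For either knockout, mix and group cannot be told apart in this test. For Quaking KO 3 members differed, 2 lower and 1 higher, where 8.88% of genes tested did (3.76% lower and 5.12% higher). Sall4 fell by 1.73 ± 0.22 more on the log2 scale in Quaking KO than in WT cells (SE, edgeR adjusted p = 1.17e-05), and Lin28a fell by 1.89 ± 0.20 more (adjusted p = 1.01e-06). Gdf3 fell less in Quaking KO, by 1.59 ± 0.44 (adjusted p = 0.0351), with the few counts given above, and without Quaking KO day 10 replicate 2 the interaction was 1.06 (adjusted p = 0.382). It was also not called without WT day 10 replicate 1 (1.66, 0.121) or 2 (1.38, 0.146). Utf1 had an interaction of -1.27 (95% interval -2.33 to -0.21, adjusted p = 0.139), which was called under 5 of 21 alternatives: with no filter (-1.28, 0.00648), with DESeq2 (-1.27, 0.0450), leaving out the 3 dominated libraries (-0.81, 0.0460), and leaving out WT day 10 replicate 1 (-1.70, 0.0125) or 3 (-0.84, 0.0327). The other 5 had adjusted p of 0.258 or above. For Sam68 KO the interaction was called for Fgf4 alone (-3.03 ± 0.68, adjusted p = 0.0452), where 0.431% of genes tested were called, and it rests on the 2 counts of Fgf4 left in Sam68 KO embryoid bodies. That call was lost under 15 of 21 alternatives, among them leaving out any Sam68 KO day 0 library, Sam68 KO day 10 replicate 1 or 2, WT day 0 replicate 2 or 3, or WT day 10 replicate 1 or 2 (values of -3.45 to -2.32). The SE of this Fgf4 interaction is smaller than counting error alone would give. The interactions of Sall4 (0.01, interval -0.44 to 0.46) and Lin28a (0.01, interval -0.38 to 0.40) in Sam68 KO were not called.

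Ratios of counts within a library do not depend on scaling, and showed how the genes moved against each other. The Lin28a count was 0.385 to 0.504 of the Sall4 count in Quaking KO, 0.385 to 0.474 in Sam68 KO and 0.447 to 0.508 in WT embryoid bodies, ranges that overlap. At day 0 it was 0.291 to 0.337 in Quaking KO, 0.255 to 0.311 in Sam68 KO and 0.301 to 0.324 in WT cells, below every day 10 library. The Sall4 count was 5.33 to 8.38 times the Pou5f1 count in Quaking KO, 25.8 to 49.1 times in Sam68 KO and 12.1 to 31.5 times in WT embryoid bodies, against 0.644 to 0.857 times over the day 0 libraries of the 3 lines. The summed level of the 7 other members at day 10 was 37.0 to 53.8 CPM in Quaking KO, 39.9 to 52.8 CPM in Sam68 KO and 41.8 to 101 CPM in WT embryoid bodies. Those sums overlapped in the 3 lines, where the levels of Sall4 and Lin28a in Quaking KO did not overlap with the others. The sum hides single genes: Utf1 in Quaking KO (4.65 to 9.28 CPM) also lay below Sam68 KO (10.7 to 12.4 CPM) and WT (9.60 to 42.3 CPM). Fgf4 in Quaking KO, with few counts, lay below WT but overlapped with Sam68 KO. The sum of 101 CPM came from WT replicate 3, and the other WT libraries had 41.8 and 48.1 CPM.

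The profiles over the 18 libraries were compared by the root mean square (RMS) difference of log2 CPM centred per gene, which shares library, day and depth between genes and is a description. Pou5f1 and Gdf3 were nearest to each other, 0.43 apart, with 0 of the other genes tested nearer to either. Fgf4 was 0.49 from Pou5f1, again with 0 features nearer, and Nanog was 0.49 from Pou5f1 with 1 nearer. Utf1 was 0.58 from Pou5f1 with 2 features nearer. The log2 CPM carry a prior count of 2, which pulls together values that rest on few counts, as those of Gdf3 and Fgf4 do at day 10. The fitted log2 changes with day in WT cells were -7.56 for Gdf3 and -6.04 for Pou5f1. Sall4 and Lin28a were 0.31 apart, with 6 and 8 features nearer. Of the other 7 members Sox2 was the nearest to both and Gdf3 the farthest, at 2.53 from Sall4 and 2.79 from Lin28a. Tdgf1 was 0.82 from its nearest member, Nanog, with 7 features nearer, and Sox2 was 0.84 from Nanog with 109 nearer. Of the features that are not members, ENSMUSG00000055102.15 was nearest to Pou5f1 (0.46) and ENSMUSG00000079259.2 to Sall4 (0.24).

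**Figure D5:**
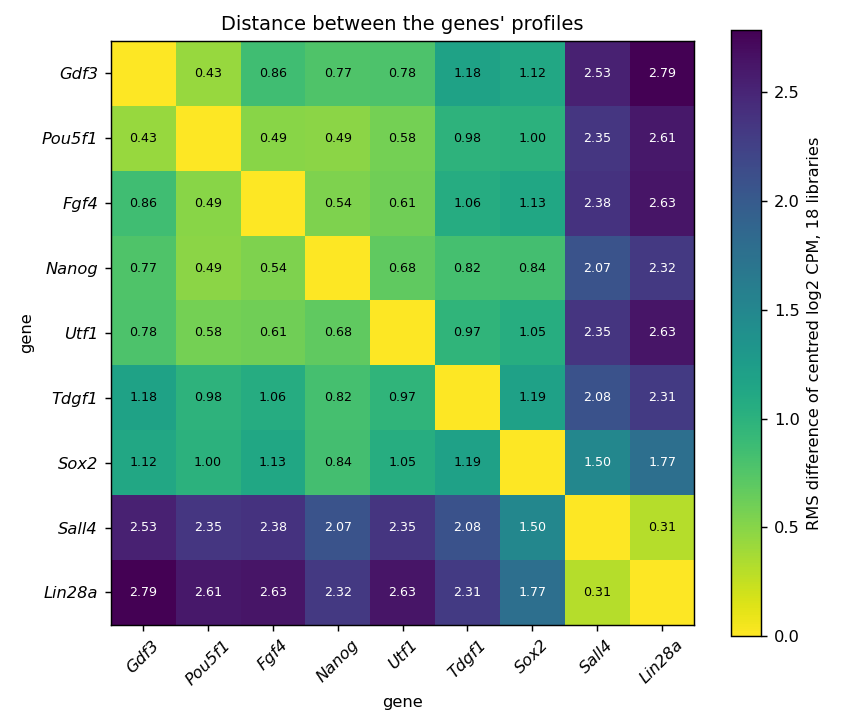
RMS difference of centred log2 CPM over the 18 libraries for each pair of the 9 genes, as numbers and as colour (dark is far apart). Sall4 and Lin28a form a pair 0.31 apart and stand far from the other 7 genes, which lie 0.43 to 1.19 from each other.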

How the data were processed

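Ribosome footprints were measured in 18 libraries. The authors deposited raw counts per gene, whole numbers for 51826 versioned Ensembl identifiers. The submitters' processing notes name STAR 2.5.3a, Bowtie2, bcl2fastq 2.17.1.14 and the builds GRCm38 and mm10. The counter, its strand setting, the annotation and the treatment of reads with several matches are not given in the sources used. Groups came from the sample labels.

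All libraries entered 1 edgeR 4.0.16 quasi-likelihood fit (R 4.3.3, robust) with a mean per group, TMM scaling and edgeR's low-count filter, which kept 13701 of the 33167 genes with a count (99.4% or more of the counts in a library). There were 11 comparisons, 2 of them interactions, two-sided, with Benjamini-Hochberg adjustment over all 13701 genes and a threshold of 0.05. SEs were derived from the F statistics, and intervals are 95%. Where the few day 10 counts of Gdf3 and Fgf4 enter, these SEs are smaller than counting error alone would give. The same holds, to a lesser degree, for Pou5f1 between the lines at day 10. The fitted intervals of these genes are then too narrow and need not match the p-values. Intervals on counts are exact and, like the limit of 3 counts behind a 0, leave out all but counting error, because reads were not tied to single molecules. The code was tested on simulated counts. Replicates of a group differed by more than sampling noise (lowest chi-square per degree of freedom 4.80).

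All 9 members are named, and features of like profile by rank. The members, lists and tests were chosen with earlier results of these data known. The symbol table matched 0 identifiers, so lists of Nodal, FGF, let-7, wider pluripotency and epiblast genes, cell type markers and the knocked-out genes were not analysed here. Same-numbered replicates did not deviate together. Alternatives were RLE and upper quartile scaling, TMM without the largest features, no filter, DESeq2 1.42.0, fits of the compared groups alone, a replicate block, thinning, and leaving out the 3 dominated libraries or each library in turn. A mix block was used for the day comparisons only.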

Additional observations from a re-analysis of the deposited data

Results flagged for a closer look

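The change with day differed between a knockout and WT for 4 gene and line pairs by the test of the difference itself, in which mix and group cannot be told apart. In Quaking KO the interaction of Sall4 was -1.73 (edgeR adjusted p = 1.17e-05) and that of Lin28a -1.89 (adjusted p = 1.01e-06), with every Quaking KO day 10 library below every WT day 10 library for both genes. Gdf3 fell less in Quaking KO than in WT cells, by 1.59 (adjusted p = 0.0351), with 22 and 10 counts left at day 10, and this call was lost under 6 of 21 alternatives. In Sam68 KO the interaction of Fgf4 was -3.03 (adjusted p = 0.0452), with 2 counts left in Sam68 KO and 17 in WT embryoid bodies, and this call was lost under 15 of 21 alternatives. DESeq2 called neither, and both genes passed the low-count filter through day 0 and not on the day 10 libraries alone.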

How the results depend on the processing

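The calls of Sall4 and Lin28a held under all 15 alternatives for Quaking KO against WT at day 10 (log2 differences of -1.79 to -1.44 and -1.90 to -1.69) and for Sam68 KO against Quaking KO (1.54 to 1.90 and 1.58 to 1.79), and under all 21 for the Quaking interaction (-1.89 to -1.55 and -2.06 to -1.79). None of these alternatives took the mix into account. In Quaking KO against WT at day 10 and in the interaction, mix and group cannot be told apart. With mix as a block, the day effect shared by the lines was 0.61 for Sall4 (adjusted p = 0.0715) and 1.37 for Lin28a (5.87e-05), opposite in sign to the change in each line; the model's construction gives this sum. With thinned libraries Sox2 was 0.34 in Quaking KO against WT and -0.19 in Sam68 KO against Quaking KO at day 10, Gdf3 was 0.36 in the second, and none of these was called. Leaving out 1 library gave Sox2 values of -0.79 to 0.22 in Quaking KO against WT and -0.94 to 0.070 in the interaction, the call appearing without Quaking KO day 10 replicate 1. Members called in Quaking KO against WT at day 10 were 2 in a fit of the compared groups, where Gdf3 was not tested, and 2 to 5 with a library left out. In Sam68 KO against Quaking KO they were 2 with thinning or the compared groups (again without a test of Gdf3) and 2 to 5 with a library left out. In Sam68 KO against WT they were 0 to 1. For the Sam68 interaction 0 were called with upper quartile scaling, the replicate block, thinning, the compared groups, DESeq2 or without the dominated libraries, and 0 to 1 with a library left out. Gdf3's Quaking interaction lost its call under 6 of 21 alternatives and the Fgf4 interaction under 15 of 21. The cause was not tested.

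Same-numbered libraries correlated at a median of -0.02 (45 pairs, -0.19 to 0.44), and 6 of 18 matched their own number best. The replicate block changed no member's call but that of Fgf4, and gave 3068 calls over all genes in Quaking KO against WT at day 10 (3279 without it). Over all genes, thinning lowered the calls most: 566 against 3279 for Quaking KO against WT at day 10, 558 against 3242 for Sam68 KO against Quaking KO, 138 against 1216 for the Quaking interaction, 3875 against 8905 for WT day 10 against day 0, 4107 against 8777 in Quaking KO and 3923 against 8948 in Sam68 KO. At day 0 the calls were 1 to 95 for Quaking KO against WT (50 in the main setting), 36 to 297 for Sam68 KO against WT (173) and 42 to 627 between the knockouts (454). Calls were 0 to 95 for Sam68 KO against WT at day 10 (24) and 14 to 129 for its interaction (59). RLE scaling moved the share of higher calls at day 10 between Sam68 KO and Quaking KO to 44.5% (55.1% with TMM). Scaling without the largest features moved the median of all genes by -0.131 and -0.135 in the day comparisons of Sam68 KO and WT cells, and upper quartile scaling by -0.102 between the knockouts at day 0. Depth limits Gdf3, Fgf4 and Tdgf1, which had few counts at day 10.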
